A study of Mus musculus with 24 samples.

Results

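Fkbp5, Zbtb16, Sgk1 and Tsc22d3 are 4 genes whose transcription is raised by glucocorticoid hormones in many tissues, and their RNA levels were followed through the day in glucagon-secreting alpha cells and insulin-secreting beta cells of the mouse pancreatic islet. They were taken from the deposited table by gene symbol, and all 4 were found among its 14027 genes. Islets came from a triple reporter mouse strain, whose reporters the labels do not name, and were taken every 4 h at 6 points of the daily lighting schedule, counted in hours of zeitgeber time (ZT): ZT0, ZT4, ZT8, ZT12, ZT16, ZT20. Each cell type had 2 libraries per time, which gave 12 alpha and 12 beta libraries, made from total RNA with stranded libraries after removal of ribosomal RNA. The groups differed only in cell type and time, with no treatment named, and the labels do not give the age of the mice, the pooling of animals or the hormone level. Whether both libraries of a group came from separate mice is not stated in the labels, so p-values here reflect the spread among the libraries, which may be technical. The reads behind the table ranged from 4944982 to 12364190 per library. In bulk libraries, fewer cells of a type and less RNA per cell cannot be told apart.

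Glucocorticoids, mainly corticosterone in mice, enter cells and bind the glucocorticoid receptor, which Hsp90 and its co-chaperones hold ready in the cytoplasm. The bound receptor moves to the nucleus and binds DNA at glucocorticoid response elements, near which its target genes are transcribed. In nocturnal rodents the hormone follows a daily rhythm that rises towards the start of the dark. Fkbp5 encodes the co-chaperone FKBP51, which lowers the receptor's affinity for hormone and so limits the response that induced it. Tsc22d3 encodes GILZ, a leucine zipper protein that restrains inflammatory transcription factors. Sgk1 encodes a serum- and glucocorticoid-regulated kinase that acts on ion channels and transporters, and Zbtb16 encodes PLZF, a BTB zinc finger transcription factor that mostly represses.

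The 4 genes are annotated as protein-coding on build GRCm38 (mm10). Fkbp5 lies at chr17:28399094-28517527 on the minus strand, Zbtb16 at chr9:48654297-48836222 on the minus strand, Sgk1 at chr10:21882184-21999903 on the plus strand and Tsc22d3 at chrX:140539528-140600659 on the minus strand. Fkbp5 shares its span with 4 other annotated genes, 2 of them on the opposite strand and 0 of them in the table, and the other 3 genes overlap none. The strand setting of the authors' counting is not given in the sources used here, so reads of such partners cannot be told apart from those of Fkbp5.

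RefSeq promoter windows on GRCm38.p6 (250 bases before to 50 after each start site) are shown for Sgk1, Fkbp5 and Tsc22d3 because they show how the start regions of the target genes differ in the elements the receptor and the clock are known to bind. For Zbtb16 no window is shown. Capitals mark the motif named for each, and all are written on the gene's own strand.
Sgk1, chr10:21993640-21993939, plus strand, full response element in capitals: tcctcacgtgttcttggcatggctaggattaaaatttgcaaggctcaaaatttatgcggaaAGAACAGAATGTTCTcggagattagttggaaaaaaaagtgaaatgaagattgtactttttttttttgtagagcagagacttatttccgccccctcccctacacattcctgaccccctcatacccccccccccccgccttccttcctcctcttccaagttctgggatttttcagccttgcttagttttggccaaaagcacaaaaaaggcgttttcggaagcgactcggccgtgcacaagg
Fkbp5, chr17:28486100-28486399, minus strand, E-box in capitals: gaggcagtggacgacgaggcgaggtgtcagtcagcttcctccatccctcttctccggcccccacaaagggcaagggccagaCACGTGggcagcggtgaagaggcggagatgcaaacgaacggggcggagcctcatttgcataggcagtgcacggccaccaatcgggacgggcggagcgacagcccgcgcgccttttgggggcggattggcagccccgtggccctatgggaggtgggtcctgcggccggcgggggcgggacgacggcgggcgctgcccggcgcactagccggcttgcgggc
Tsc22d3, chrX:140600473-140600772, minus strand, single hexamer in capitals: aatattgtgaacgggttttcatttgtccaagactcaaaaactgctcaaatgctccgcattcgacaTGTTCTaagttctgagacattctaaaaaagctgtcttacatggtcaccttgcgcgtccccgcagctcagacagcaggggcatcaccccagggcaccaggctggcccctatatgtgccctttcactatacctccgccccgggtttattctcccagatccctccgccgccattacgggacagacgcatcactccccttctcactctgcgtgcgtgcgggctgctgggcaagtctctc
The full element searched was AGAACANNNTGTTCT, made of a hexamer on each strand around a spacer. The single hexamer was searched as AGAACA. The E-box was searched as CACGTG. The D-box was searched as TTATGTAA. All were sought on both strands, and each full element also counts as 2 matches of the hexamer. The Sgk1 window held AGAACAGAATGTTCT beginning 189 bases before the start site, and the full element occurred in 3 of 32851 windows (0.00913%), of which Sgk1 was the only gene in the expression table. The same Sgk1 window held an E-box that overlapped a further hexamer. The Fkbp5 window held an E-box beginning 169 bases before the start, a motif found in 7.15% of all windows. The Tsc22d3 window shown held the hexamer beginning 185 bases before the start, and 19.0% of all windows hold it. Of the other 2 windows of Tsc22d3, 0 held any of the 4 motifs, and of the other 5 windows of Sgk1, 2 held the hexamer and 0 the full element. These matches are letters in short windows and say nothing about binding in islet cells.

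The labelled cell types matched their hormone and transcription factor genes. The summed level of 5 alpha markers was 96020 to 165324 RPKM (reads per kilobase, scaled to library size) in alpha libraries and 39.2 to 1915 RPKM in beta libraries. The sum of 7 beta markers was 414 to 5210.4 RPKM in alpha libraries and 188793 to 350916 RPKM in beta libraries. Genes of other islet endocrine cells gave larger sums in the alpha libraries, without overlap: 3 PP cell markers summed to 27826 to 59539.6 RPKM in alpha libraries and 359 to 1729.9 RPKM in beta libraries, and 4 delta cell markers to 2513 to 5177 RPKM in alpha libraries and 644 to 1421 RPKM in beta libraries. Acinar markers overlapped between the cell types, at 32.5 to 393 RPKM in alpha libraries and 38.0 to 359 RPKM in beta libraries, and so did 5 immune markers, at 40.6 to 70.7 RPKM in alpha libraries and 32.7 to 65.4 RPKM in beta libraries. Duct and stromal markers were higher in the alpha libraries without overlap: 2 measured duct markers summed to 25.6 to 78.6 RPKM in alpha libraries and 5.03 to 19.2 RPKM in beta libraries, and 6 stromal markers to 4.30 to 9.14 RPKM in alpha libraries and 0.517 to 1.65 RPKM in beta libraries. The sum of 4 endothelial markers was 3.87 to 7.42 RPKM in alpha libraries and 2.15 to 4.03 RPKM in beta libraries. The alpha, beta, PP, delta, duct and stromal sums differed with the cell type and so accompany each comparison of alpha with beta cells below. The part of any of these sums in the results was not tested.

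Per length, Fkbp5 was the most abundant of the 4 genes on average in both cell types, and the least abundant differed. In alpha cells the order was Fkbp5, Tsc22d3, Zbtb16 and Sgk1, and the ranges of neighbouring genes over the 12 libraries did not overlap. In beta cells the order was Fkbp5, Tsc22d3, Sgk1 and Zbtb16, and the ranges of Fkbp5 and Tsc22d3 overlapped. The Fkbp5 level was 2.96 to 4.83 times the Tsc22d3 level within an alpha library and 0.921 to 1.79 times within a beta library, above it in 12 of 12 alpha libraries and in 11 of 12 beta libraries.

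Between the cell types, 2 of the 4 genes passed the call rule (limma adjusted p below 0.05 with a fold of 2 or more): Zbtb16, higher in alpha cells, and Sgk1, lower in alpha cells. Of all genes 20.7% were called by this rule. For 3 of the 4 genes, all but Fkbp5, no alpha library lay within the range of the beta libraries, as for 26% of all genes.

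**Figure D1:**
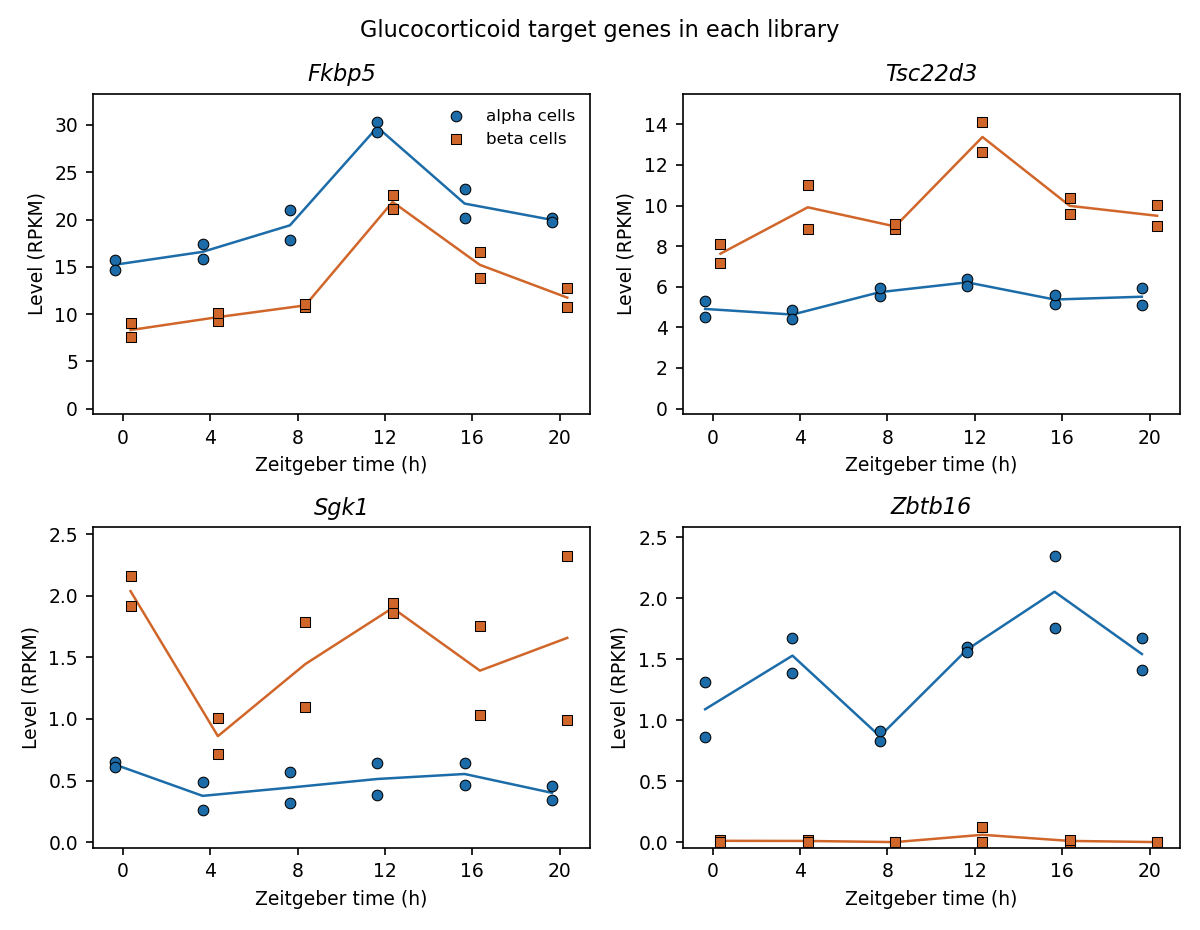
Level (RPKM) of each gene in every library against zeitgeber time, with alpha libraries as circles and beta libraries as squares, drawn slightly apart at each time; lines join the means of 2 libraries. Fkbp5 and Tsc22d3 had their highest libraries at ZT12 in both cell types, and Zbtb16 lay at or near 0 in beta cells.

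Fkbp5 was higher in alpha than in beta cells at every time and rose and fell through the day in both. Its level in alpha libraries was 14.7 at the lowest, 19.9 at the median and 30.3 RPKM at the highest, with a mean of 20.4 ± 5.01 (SD, n = 12, which includes the time of day). In beta libraries it was 7.54 at the lowest, 10.9 at the median and 22.6 RPKM at the highest, with a mean of 13.0 ± 4.79 (SD, n = 12). The ranges overlapped over the whole day, but at each of the 6 times both alpha libraries stood above both beta libraries. The log2 difference was 0.70 (SE 0.0575, 1.62-fold, limma with Benjamini-Hochberg adjustment, adjusted p = 1.9e-10). That fold is below the 2-fold rule used to call cell type differences, and an adjusted p under 0.05 at any fold was met by 74.9% of all genes, with 37.8% higher in alpha cells and 37.2% higher in beta cells.

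At ZT12 Fkbp5 had 30.3 and 29.2 RPKM in alpha cells, against 22.6 and 21.1 RPKM in beta cells. At ZT0 it had 15.8 and 14.7 RPKM in alpha cells, against 9.08 and 7.54 RPKM in beta cells. In each cell type these were the highest and the lowest pair of libraries. The time means ran through 15.2, 16.6, 19.4, 29.8, 21.7 and 19.96 RPKM from ZT0 to ZT20 in alpha cells. In beta cells they ran through 8.31, 9.68, 10.9, 21.9, 15.2 and 11.7 RPKM. The order of the 6 times was the same in both cell types, ZT12 first, then ZT16, ZT20, ZT8, ZT4 and ZT0. In alpha cells the libraries of ZT16 and ZT20 overlapped, as did those of ZT20 and ZT8, and in beta cells those of ZT20 and ZT8. Between ZT8 and ZT12 the mean increased in 4 h by 1.54 times in alpha cells and 2.00 times in beta cells.

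A cosine of 24 h was fitted to Fkbp5 with a peak at ZT 13.2 ± 0.76 h in alpha cells, against ZT 13.4 ± 0.50 h in beta cells (peak ± SE). The fitted range between peak and trough was 1.74-fold in alpha cells (limma adjusted p = 0.0103) and 2.29-fold in beta cells (adjusted p = 0.000161). A rhythm passed this test in 9.66% of all genes in alpha cells, 16% in beta cells and 4.15% in both, and by p Fkbp5 ranked 262 in alpha cells and 53 in beta cells. Without a cosine, a difference among the 6 times also passed in alpha cells (limma adjusted p = 0.00378) and in beta cells (adjusted p = 8.05e-05), as it did in 3.79% and 8.64% of all genes. The SD of the time means on the log2 scale was 0.34 in alpha cells and 0.50 in beta cells, against 0.10 and 0.14 between replicates. In alpha cells the call rests on ZT12: with that time left out the fitted log2 range was 0.55 (limma adjusted p = 0.0796), while in beta cells the rhythm still passed.

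The daily range of Fkbp5 was larger in beta than in alpha cells in these libraries, but the difference did not pass a test. The ratio of alpha to beta means was 1.83, 1.71, 1.78, 1.36, 1.43 and 1.70 from ZT0 to ZT20. The difference of rhythm had a limma adjusted p of 0.911 and the interaction of cell type and time an adjusted p of 1.00. Of all genes 0.0713% passed the first test and 0.0143% the second. The fitted peaks differed by -0.19 ± 0.91 h (alpha minus beta, SE). For Nr1d1, a repressor of the core clock, the fitted peaks differed by 1.67 ± 0.34 h (later in alpha cells, SE), and its difference of rhythm did not pass either (limma adjusted p = 0.124).

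Tsc22d3 was lower in alpha than in beta cells at every time. In alpha libraries its level was 4.40 at the lowest, 5.44 at the median and 6.39 RPKM at the highest (mean 5.40 ± 0.621, SD, n = 12). In beta libraries it was 7.17 at the lowest, 9.34 at the median and 14.1 RPKM at the highest (mean 9.90 ± 1.94, SD, n = 12). All 12 alpha libraries lay below all 12 beta libraries, a separation seen in that direction for 14.2% of all genes. The log2 difference was -0.85 (SE 0.0624, 1.81-fold higher in beta cells, limma adjusted p = 2.35e-11), again below the 2-fold rule.

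Over the day Tsc22d3 had its highest libraries at ZT12 in both cell types. It had 6.39 and 6.05 RPKM at ZT12 in alpha cells, where no other library exceeded 5.92. In beta cells it had 12.6 and 14.1 RPKM at ZT12, where no other library exceeded 11.0. The lowest means were at ZT4 in alpha cells and at ZT0 in beta cells. From ZT0 to ZT20 the alpha means ran through 4.91, 4.63, 5.74, 6.22, 5.37 and 5.51 RPKM, and the beta means through 7.63, 9.92, 8.97, 13.4, 9.99 and 9.50 RPKM. The fitted range was 1.26-fold in alpha cells (peak ZT 13.0 ± 1.6 h, limma adjusted p = 0.219) and 1.43-fold in beta cells (peak ZT 12.4 ± 1.0 h, adjusted p = 0.0366). Any difference among times had a limma adjusted p of 0.235 in alpha cells and 0.0158 in beta cells.

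The rhythm of Tsc22d3 in beta cells was close to the threshold and depended on single libraries. Without replicate 1 or 2 of ZT12 in beta cells its limma adjusted p was 0.104 and 0.142, and the test of any difference among times gave 0.0511 and 0.107. Without replicate 1 or 2 of ZT0 in beta cells the rhythm had an adjusted p of 0.0605 and 0.0873. Without replicate 2 of ZT16 or of ZT20 in beta cells it was 0.0633 and 0.0533. With a replicate block the rhythm had an adjusted p of 0.0505. The log2 range over leaving out each of the 24 libraries was 0.40 to 0.62. The difference of rhythm between the cell types had a limma adjusted p of 1.00, and the peaks differed by 0.61 ± 1.9 h (alpha minus beta, SE).

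**Figure D2:**
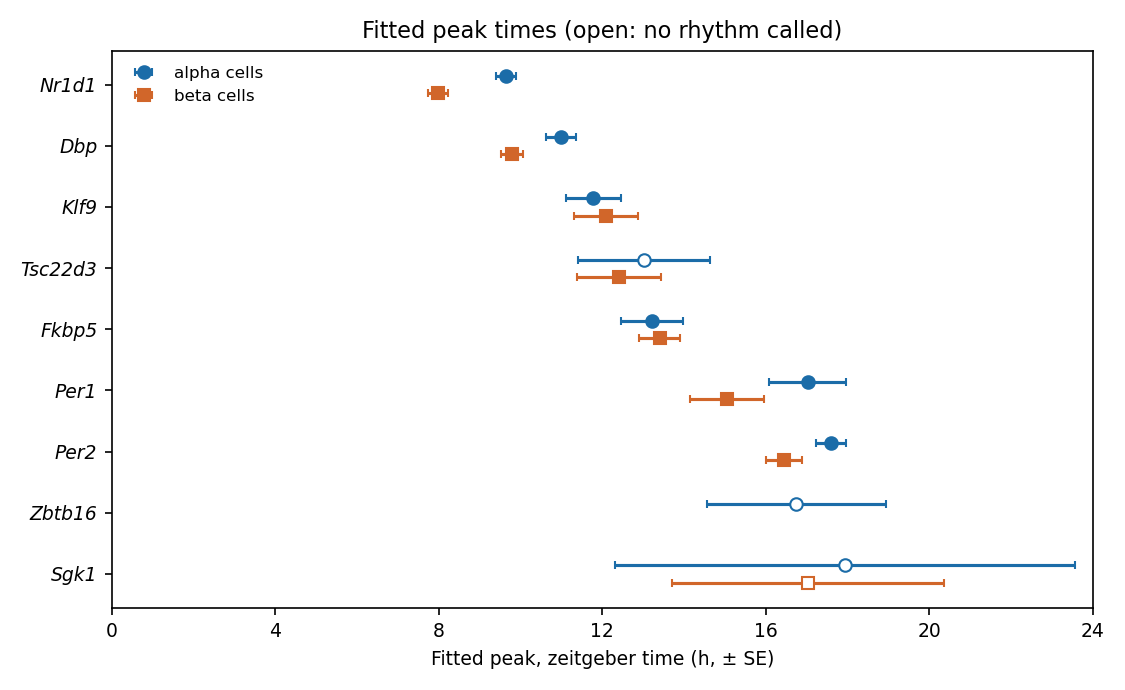
Fitted peak of a 24 h cosine with its standard error for the 4 genes, Klf9 and 4 clock genes, with alpha cells as circles above beta cells as squares; filled symbols passed an adjusted p under 0.05. Fkbp5, Tsc22d3 and Klf9 had fitted peaks between ZT 11.8 and ZT 13.4 in both cell types, after those of Nr1d1 and Dbp and before those of Per1 and Per2; Zbtb16 in beta cells is not drawn because it had 8 reads in all.

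Both ZT12 libraries of Fkbp5 and of Tsc22d3 stood above the other 10 in alpha cells and again in beta cells. This pattern, noticed after the values were seen, was met by 2.25% of all genes in alpha cells, 2.84% in beta cells and 0.428% (60 genes) in both. Of 30 other measured glucocorticoid target genes, only Rgs2, which encodes a regulator of G protein signalling, met it in both. Rgs2, also singled out after its values were seen, averaged 32.1 RPKM at ZT12 in alpha cells, where the highest other library had 29.8. In beta cells it averaged 70.8 RPKM at ZT12, where the highest other library had 38.8 and a rhythm passed (limma adjusted p = 0.0139). No test over time passed for Rgs2 in alpha cells: the rhythm had a limma adjusted p of 0.612 and any difference among times 0.807. The summed markers of other cell types at ZT12 lay inside the range of the other times in most cases. In alpha cells replicate 2 of ZT12 had the highest acinar sum (393 RPKM) and the lowest beta marker sum (414 RPKM) and stromal sum (4.30 RPKM), and replicate 1 of ZT12 the lowest delta sum (2513 RPKM). Replicate 2 of ZT12 in alpha cells was also the shallowest library. In beta cells all these sums at ZT12 were inside the range of the other times.

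Sgk1 was lower in alpha than in beta cells and showed no daily pattern that passed a test. In alpha libraries its level was 0.262 at the lowest, 0.474 at the median and 0.649 RPKM at the highest (mean 0.485 ± 0.138, SD, n = 12). In beta libraries it was 0.715 at the lowest, 1.77 at the median and 2.33 RPKM at the highest (mean 1.55 ± 0.542, SD, n = 12). The alpha libraries all lay below the beta libraries. The log2 difference was -1.56 (SE 0.161, 2.95-fold higher in beta cells, limma adjusted p = 9.28e-09), and Sgk1 was called at 2-fold together with 9.54% of all genes in that direction. On the log2(RPKM + 1) scale, which compresses low genes, the difference was -0.75 and fell short of 2-fold.

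The time means of Sgk1 ran through 0.629, 0.375, 0.443, 0.512, 0.553 and 0.400 RPKM from ZT0 to ZT20 in alpha cells. In beta cells they ran through 2.04, 0.860, 1.45, 1.90, 1.39 and 1.66 RPKM. In both cell types ZT0 had the highest and ZT4 the lowest mean. The replicates spread about as widely as the times: on the log2 scale the SD between replicates was 0.42 in alpha cells against 0.47 in beta cells, and that of the time means 0.28 in alpha cells and 0.44 in beta cells. At ZT20 the 2 beta libraries had 2.33 and 0.991 RPKM. The rhythm had a limma adjusted p of 0.868 in alpha cells against 0.655 in beta cells, and any difference among times 0.691 in alpha cells and 0.292 in beta cells. These levels rest on 10 to 39 reads per alpha library and 32 to 107 per beta library.

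Zbtb16 was measured in every alpha library and hardly at all in beta cells. In alpha libraries its level was 0.825 at the lowest, 1.48 at the median and 2.35 RPKM at the highest (mean 1.44 ± 0.435, SD, n = 12), from 41 to 138 reads per library. In beta cells 8 of 12 libraries had 0 reads, and a count of 0 allows up to 3 reads, or 0.0561 to 0.0666 RPKM in these 8 libraries. Of the 8 beta reads 5 were in replicate 1 of ZT12 (0.120 RPKM), and 1 each in replicate 1 of ZT0, replicate 1 of ZT4 and replicate 2 of ZT16. The alpha libraries all lay above the beta libraries, as for 11.9% of all genes.

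Summed over libraries, 957 alpha reads and 8 beta reads of Zbtb16 gave a ratio of 106 (exact 95% interval 53.8 to 247, for counting error only). Without replicate 1 of ZT12 in beta cells, 3 beta reads were left and the ratio was 264 (89.9 to 1281). The difference of the deposited log2 values was 4.90 (SE 0.196, limma adjusted p = 3.52e-16), a size that depends on the prior count added to every gene, and 11.2% of all genes were called higher in alpha cells at 2-fold. Gcg made up 0.0134% of the reads of replicate 1 of ZT12 in beta cells and 0.281% of replicate 1 of ZT4, which had the most; the part of alpha cell RNA in the beta reads of Zbtb16 was not tested.

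In alpha cells the means of Zbtb16 ran through 1.09, 1.53, 0.868, 1.58, 2.05 and 1.54 RPKM from ZT0 to ZT20. The 2 libraries of ZT16 had 1.76 and 2.35 RPKM and those of ZT8 0.825 and 0.910 RPKM. No test over time passed: the rhythm had a limma adjusted p of 0.414 and any difference among times 0.450. On the log2(RPKM + 1) scale any difference among times in alpha cells had an adjusted p of 0.0102, so that call depends on the scale.

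Across libraries Fkbp5 and Tsc22d3 moved together, and Sgk1 showed next to no correlation with either. With each cell type centred on its own mean, the correlation of Fkbp5 with Tsc22d3 over the 24 libraries was r = 0.82, rank 8 among 11830 genes with a mean log2 value above 0, and it was 0.74 within the 12 alpha and 0.86 within the 12 beta libraries. The correlation of Fkbp5 with Sgk1 was 0.04, and that of Tsc22d3 with Sgk1 was 0.04. Replicates of Sgk1 differed by a median of 0.57 in alpha and 0.58 in beta cells on the log2 scale. For Fkbp5 these medians were 0.12 and 0.19. Such a spread pulls a correlation towards 0, so a shared movement of Sgk1 may be missed. Zbtb16, with 0 reads in 8 of 12 beta libraries, can be followed in alpha cells only, where its correlation with Fkbp5 was 0.36 and with Tsc22d3 0.01. These are descriptions: the points share their libraries, depth and time points. Libraries of ZT12 lay at the high end of both Fkbp5 and Tsc22d3, and those of ZT0 at the low end of Fkbp5.

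**Figure D3:**
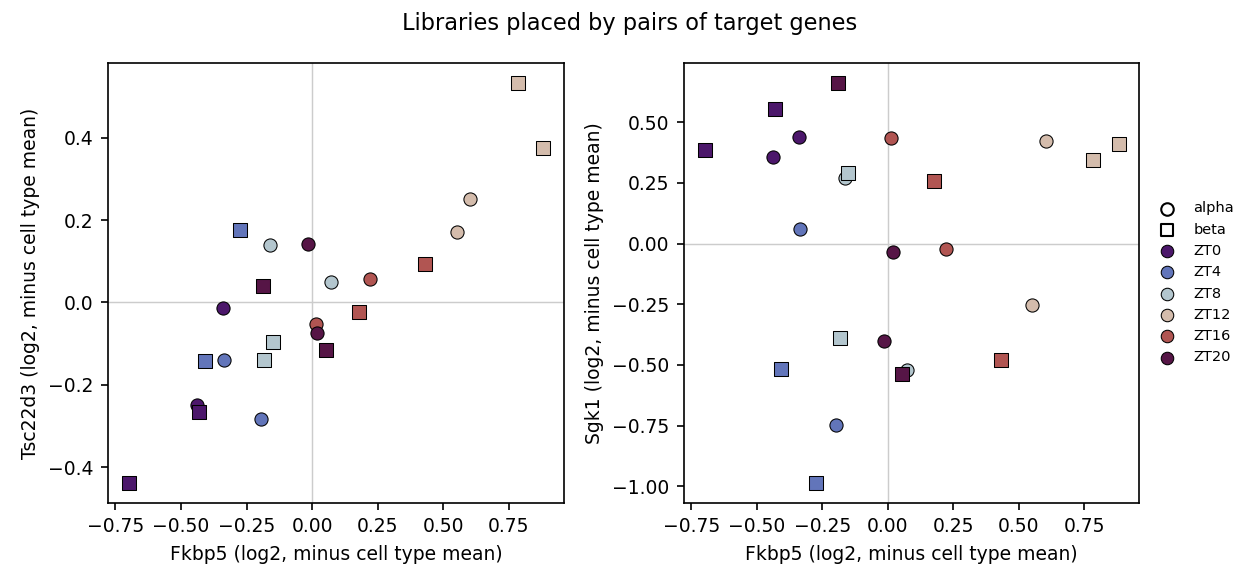
Each of the 24 libraries placed by its log2 level of Fkbp5 (horizontal) against Tsc22d3 (left) and Sgk1 (right), after subtraction of the mean of its cell type; circles are alpha and squares beta libraries, coloured by time. Libraries with more Fkbp5 had more Tsc22d3 (r = 0.82), while Sgk1 showed no such order (r = 0.04).

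The genes most like Fkbp5 were Sstr3, a somatostatin receptor gene (r = 0.88), Usp51 (0.86), Arhgef3 (0.86), Cnot8 (0.85) and Il6ra, the interleukin 6 receptor gene (0.84). Those most like Tsc22d3 were Usp51 (0.86), Cnn3 (0.84), Fkbp5 (0.82), Gpr155 (0.79) and Arhgef3 (0.76). Those most like Sgk1 were Ltv1 (0.78), Mir22hg (0.72), Yars2 (0.70), Stub1 (0.70) and the immediate early gene Fosl2 (0.69). For Zbtb16 the same ranking over 24 libraries gave Rnf32, Il18bp, Pisd, Rbmx and Shc2, but it rests in part on beta libraries at 0 and on the 5 reads of replicate 1 of ZT12 in beta cells, which put that library 1.73 above the beta mean on the log2 scale. Within the 12 alpha libraries the correlation of Zbtb16 with these genes was 0.76 for Rnf32, 0.70 for Il18bp, 0.51 for Pisd, 0.79 for Rbmx and 0.92 for Shc2. Among the clock genes, Fkbp5 had r = 0.62 with Dbp, an output gene of the clock, and r = -0.80 with Arntl, the clock activator gene, which placed Arntl 11825 of 11830.

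The receptor and the machinery around it differed between the cell types by less than 2-fold. Nr3c1, the glucocorticoid receptor gene, had 21.6 ± 2.10 RPKM in alpha cells, against 21.0 ± 2.09 RPKM in beta cells (SD, n = 12), with a log2 difference of 0.04 (SE 0.0408, limma adjusted p = 0.379). Its rhythm had an adjusted p of 0.163 in alpha cells and 0.0655 in beta cells. Nr3c2, the other receptor gene considered, had 12.6 ± 1.92 RPKM in alpha cells, against 6.51 ± 0.994 RPKM in beta cells (SD, n = 12). That was 1.92-fold higher in alpha cells (limma adjusted p = 2.15e-12), below the 2-fold rule. Of 16 measured receptor and chaperone genes, 0 were called at 2-fold by limma, against 20.7% of all genes, and 0 by voom on recovered reads. At any fold 9 of the 16 had an unadjusted limma p under 0.05, where 74.9% of all genes had an adjusted p under 0.05. The median log2 difference of the 16 genes was 0.02, against 0.01 over all genes. A rhythm passed for 3 of them in both cell types, as for 4.15% of all genes: Hspa4, a heat shock protein gene, Stip1, which links Hsp70 to Hsp90, and Fkbp4, whose product FKBP52 counters FKBP51 at the receptor. Fkbp4 had a fitted peak at ZT 19.9 ± 0.89 h in alpha cells, against ZT 19.1 ± 0.97 h in beta cells, later than that of Fkbp5.

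Of 16 measured receptor cofactor genes, 1 was called (20.7% of all genes), with a median log2 difference of 0.18 over the list. It was the corepressor gene Nrip1, higher in alpha cells, with 5.23 ± 0.724 RPKM in alpha cells, against 2.38 ± 0.258 RPKM in beta cells (SD, n = 12, limma adjusted p = 1.75e-13). A rhythm passed for 1 cofactor gene in alpha cells, the deacetylase gene Hdac3, and 4 in beta cells, among them the coactivator gene Ncoa3 and the remodeller gene Smarca4, where 9.66% of all genes passed in alpha cells and 16% in beta cells. Of 8 listed genes of steroid supply 2 were measured, and H6pd, which feeds the corticosterone-regenerating enzyme with NADPH, was 2.51-fold higher in beta cells. H6pd had 6.54 ± 1.04 RPKM in alpha cells, against 16.3 ± 0.882 RPKM in beta cells (SD, n = 12, limma adjusted p = 1.48e-15). Hsd11b1, the gene of that enzyme, was not among the measured genes, so its level in either cell type is not known here.

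Other glucocorticoid targets were called between the cell types in both directions. Of 30 measured, 5 were called higher in alpha and 6 in beta cells, where 11.2% of all genes were called higher in alpha and 9.54% in beta cells, with a median log2 difference of -0.21 against 0.01 over all genes. Pdk4, an inhibitor of pyruvate dehydrogenase, had 49.2 ± 12.5 RPKM in alpha cells, against 0.149 ± 0.306 RPKM in beta cells. Gadd45b, a stress-response gene, and Zfp36, which encodes an RNA-destabilising protein, were 6.53-fold and 4.64-fold higher in alpha cells. The metallothionein genes Mt1 and Mt2 were lower in alpha cells, by 3.37-fold and 2.39-fold (limma adjusted p at most 3.31e-07 for these 5 genes). Immediate early genes, which answer acute stimulation and can overlap with glucocorticoid targets, were called for 11 of 17 genes, each higher in alpha cells (11.2% of all genes). Their summed level was 462 to 2937 RPKM in alpha libraries and 305 to 1205 RPKM in beta libraries, and its part in these differences was not tested.

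A rhythm passed for 7 of the 30 other targets in alpha cells, 9 in beta cells and 5 in both, where the shares of all genes were 9.66% in alpha cells, 16% in beta cells and 4.15% in both. Klf9, a Krüppel-like transcription factor gene, had a fitted peak close to that of Fkbp5, at ZT 11.8 ± 0.68 h in alpha cells (limma adjusted p = 0.00487), against ZT 12.1 ± 0.78 h in beta cells (adjusted p = 0.00777). It had 22.1 ± 5.55 RPKM in alpha cells, against 36.3 ± 7.31 RPKM in beta cells (SD, n = 12). Mt1 and Mt2 had earlier fitted peaks, at ZT 7.35 and ZT 7.03 in alpha cells and at ZT 6.39 and ZT 5.89 in beta cells. Per1, a clock repressor gene that the receptor also induces, peaked later, at ZT 17.0 ± 0.94 h in alpha cells, against ZT 15.1 ± 0.91 h in beta cells. The difference of rhythm between the cell types passed for 0 of the 30 by limma, against 0.0713% of all genes, and for 0 by voom. An unadjusted limma p under 0.05 was reached by 4 of the 30, and the share of all genes at that p was not counted.

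Counts of called relatives of the 4 genes are to be read against 20.7% of all genes called, 11.2% higher in alpha and 9.54% higher in beta cells. Of 14 measured FKBP family genes, 2 were called higher in alpha and 3 in beta cells. Fkbp1b, a calcium release channel partner, was 66.9-fold higher in beta cells, and Fkbp11, a protein-folding enzyme of the endoplasmic reticulum, 4.86-fold higher. The 2 genes called in the other direction were Fkbp10 (2.31-fold) and Fkbp7 (2.11-fold). A rhythm passed for 2 of the 14 in alpha cells (9.66% of all genes) and for 5 in beta cells (16%). Fkbp11 in beta cells had its fitted peak at ZT 22.8 ± 0.46 h. Of 19 genes of the SGK family, its activators and substrates, 2 were called: Ndrg2, higher in alpha cells (2.97-fold), and the potassium channel gene Kcnq1, higher in beta cells (3.44-fold). Both had low levels. Ndrg2 had 0.805 ± 0.762 RPKM in alpha cells, with 3.10 in the highest library, against 0.180 ± 0.117 RPKM in beta cells (SD, n = 12). Kcnq1 had 0.0677 ± 0.0726 RPKM in alpha cells, against 0.363 ± 0.168 RPKM in beta cells. Sgk2 had 4.28 ± 0.832 RPKM in alpha cells, against 2.54 ± 0.205 RPKM in beta cells (SD, n = 12), the opposite direction to Sgk1. The difference was 1.64-fold, below the 2-fold rule. A rhythm of Sgk2 passed in alpha cells (peak ZT 8.36 ± 0.78 h, limma adjusted p = 0.0122) and not in beta cells (adjusted p = 0.721). Its difference of rhythm between the cell types did not pass (limma adjusted p = 0.255). Ndrg1, of the same list, had a rhythm in alpha cells (limma adjusted p = 0.0392) and in beta cells (adjusted p = 0.00618). A rhythm in both was found for 4.15% of all genes. Of 5 TSC22 family and partner genes 0 were called at 2-fold by limma or by voom. At any fold 4 of the 5 had an unadjusted limma p under 0.05, where 74.9% of all genes had an adjusted p under 0.05. Of 13 BTB zinc finger and cullin 3 genes 1 was called, the transcription repressor gene Bcl6 (2.40-fold higher in alpha cells).

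**Figure D4:**
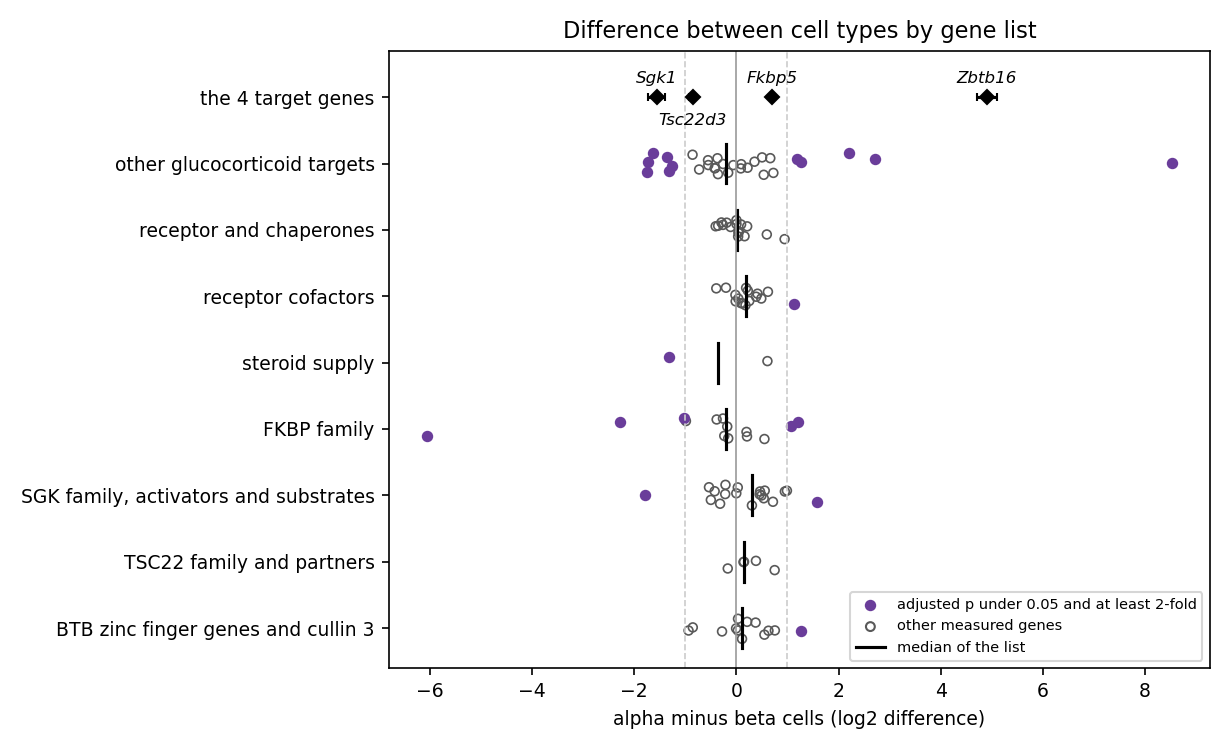
Log2 difference, alpha minus beta cells, of the 4 target genes (diamonds with standard errors) and of each measured gene of 8 lists; filled points passed an adjusted p under 0.05 and 2-fold, black bars are list medians and dashed lines mark 2-fold. Zbtb16 lay at 4.90 and Sgk1 at -1.56, beyond the 2-fold lines, with Fkbp5 at 0.70 and Tsc22d3 at -0.85 inside them.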

How the data were processed

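RNA of islet alpha and beta cells was measured in 24 libraries, grouped by the cell type and isolation time in the labels. The submitters' processing notes name STAR, edgeR and the build mm10, without versions; not given in the sources used here are the annotation, the strand setting and the gene filter. The values deposited by the authors are on a log2 scale, and their steps fit log2 RPKM with a prior count of 2. Whole reads were recovered from their steps for 14027 genes (100% of values whole within 0.001), where the median gene had 206 reads and 0.774% of entries were 0. RPKM means were computed from these reads without the prior count, and intervals and floors cover counting error only. Because of the prior count, log2 differences are too small for genes with few reads. In each group the replicate pair differed beyond sampling noise, with a chi-square of 2.52 to 46.6 per gene over genes with at least 10 reads in the pair.

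The tests used limma 3.58.1 in R 4.3.3 on the deposited values, with a trend and robust estimation, and Benjamini-Hochberg adjustment over all 14027 genes. Cell types were compared with time as a factor of 6 levels and called at an adjusted p under 0.05 and at least 2-fold. Rhythms were fitted as a 24 h cosine per cell type in a model over all 24 libraries, differences of rhythm as the differences of these terms, and differences among times and the interaction over the 12 group means. The planned tests on counts were not run because the unit is log2; voom on the recovered reads was added in their place after the values were seen, as were library totals, 3 libraries left out and each time left out. The scripts were tested on simulated data. Of the gene identifiers 13802 matched the GENCODE annotation of GRCm38, and promoter windows are those of RefSeq on GRCm38.p6.

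The 4 genes and the gene lists were chosen with earlier results of these data known. From each list up to 4 called genes were picked by the size of the cell type difference. Up to 3 were picked by the lowest unadjusted p of a rhythm in either cell type, among those that passed. Not every gene picked this way is named in the text. Nr3c1, the clock genes Arntl, Nr1d1, Dbp, Per1 and Per2, and the 5 genes most like each member were always taken, predicted genes excepted. Rgs2 and Nr3c2 were singled out after their values were seen.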

Additional observations from a re-analysis of the deposited data

How the results depend on the processing

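Each test was repeated under 43 other settings, some of which apply to only some tests. Of 1102 recomputed values of the 4 genes, 1083 kept their side of the threshold. The count includes tests that passed in no setting. A direction was compared for the cell type difference only, and its sign held in every setting run. Fkbp5 and Tsc22d3 kept the sign of their cell type difference and Zbtb16 its call in every setting run, with log2 differences of 0.58 to 0.88 for Fkbp5, -0.92 to -0.68 for Tsc22d3 and 1.25 to 6.41 for Zbtb16. On log2(RPKM + 1) the Sgk1 difference was -0.75 (below 2-fold), and the filter at a mean log2 value above 0 removed Sgk1 and Zbtb16 and gave no value for them. Library totals in place of the authors' scaling moved the median of all genes from 0.01 to 0.19, relative to which the differences were 0.69 for Fkbp5, 4.80 for Zbtb16, -1.58 for Sgk1 and -0.87 for Tsc22d3. The log2 range of the Fkbp5 rhythm in alpha cells was 0.55 without ZT12. That of the Tsc22d3 rhythm in beta cells lost its call at 0.40 without ZT0, 0.26 without ZT12, 0.63 without ZT16, 0.52 without 3 libraries that stand apart (replicate 2 of ZT8 and replicate 1 of ZT4 in alpha cells, replicate 1 of ZT4 in beta cells), 0.50 with quantile normalization and 0.52 with the replicate block, and ranged from 0.40 to 0.62 when each library was left out. Any difference among times of Fkbp5 in alpha cells and Tsc22d3 in beta cells was also lost without ZT12 (0.51 and 0.39), and that of Zbtb16 in alpha cells passed on log2(RPKM + 1) (0.70). The causes of these changes were not tested.

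Counts over all genes moved more. Cell type calls numbered 2903, but 1602 on log2(RPKM + 1) and 1755 with the filter. Rhythms in alpha cells numbered 1355, but 2096 with quantile normalization, and 348 (without replicate 1 of ZT8 in alpha cells) to 2252 (without replicate 1 of ZT4 in alpha cells) when each library was left out; in beta cells 2241, and 1077 (without replicate 2 of ZT16 in beta cells) to 3100 (without replicate 2 of ZT0 in beta cells). Differences among times in alpha cells numbered 531, but 797 on log2(RPKM + 1), 1262 with quantile normalization, 821 with voom and 183 to 1260 with a library left out; in beta cells 1212, and 514 to 2693. Differences of rhythm numbered 10, but 44 on log2(RPKM + 1), 18 with quantile normalization, 174 with the replicate block and 4 to 14 with a library left out. The interaction numbered 2, but 0 without the 3 libraries, 6 with library totals, 1 without trend and robust estimation, 29 on log2(RPKM + 1), 6 with quantile normalization, 34 with the replicate block and 1 to 6 with a library left out. Same-numbered alpha and beta libraries deviated together at ZT0, ZT4 and ZT8, and little or not at all later. The correlation of their deviations was 0.704 at ZT0, 0.52 at ZT4, 0.448 at ZT8, 0.153 at ZT12, 0.151 at ZT16 and 0.0246 at ZT20. The labels do not say whether such libraries came from the same mice. The main tests used no replicate block and so leave shared deviations out, and the block is given as an alternative. It changed no call of the 4 genes in the difference of rhythm or the interaction.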
